A study of Mus musculus with 2 samples.

Results

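The genes described here are 10 genes of MHC class I antigen presentation: the classical heavy chains H2-K1 and H2-D1, the light chain B2m, the non-classical heavy chains H2-Q4, H2-Q6, H2-Q7 and H2-T23, the peptide transporter subunits Tap1 and Tap2, and the loading chaperone Tapbp. They were chosen by gene symbol, and each matched 1 of the 31058 features counted, so 10 of 31058 features are described. The counts come from droplet-based single-cell 3′ RNA libraries of cells from kidney glomeruli, 1 library from a mouse titled female and 1 from a mouse titled male. Both mice were healthy, of strain C57Bl/6 and genotype Pax2.rtTA;TetO.Cre;R26.Confetti. Both received doxycycline at 19 days of age and were killed at 30 days. In this genotype a Pax2-driven transactivator switches on Cre in the presence of doxycycline, and Cre recombines a Confetti colour reporter, so both libraries carry the same alleles and the same treatment and none of the 10 genes is targeted. The sex-linked transcripts went against the titles: the library labelled female held 201 CPM (UMIs scaled to the same total in each library or class) from Y-linked genes and 0.621 CPM of Xist, and the library labelled male held 0.0346 CPM and 1426 CPM. The libraries are therefore named by their labels only, and no direction between them is read as an effect of sex.

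MHC class I molecules display peptides from inside the cell to CD8 T cells and to receptors of natural killer cells. A heavy chain pairs with the light chain beta-microglobulin, encoded by B2m, and is loaded in the endoplasmic reticulum with peptides cut by the proteasome, carried by the TAP transporter and handed over with the help of tapasin. Endothelial and immune cells are known for high class I expression, and interferon raises the whole pathway in most cells.

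The deposited libraries held 67648465 and 57841860 UMIs (labelled female, then labelled male, the order kept for all paired values below). Of their barcodes, 4909 and 4442 were kept, with medians of 10672 and 9616 UMIs, and 7 of the kept barcodes occurred in both libraries. Clustering without 65 genes of the MHC and its pathway gave 22 clusters, of which 17 were named from marker genes, each with at least 5 detected markers, and 409 cells stayed unnamed. The podocyte-like class had 4082 and 3665 cells, the mesangial-like 206 and 160, the glomerular endothelial-like 110 and 91, and the parietal epithelial-like 103 and 69. The arterial endothelial-like class had 65 and 64 cells, the smooth muscle or renin-like 41 and 66, and the thick ascending limb-like 34 and 43. The smallest classes were T or NK-like (7 and 32 cells), macrophage or monocyte-like (11 and 24), distal convoluted tubule-like (10 and 27) and proximal tubule-like (10 and 22). The doublet caller marked only 2 and 1 cells. Why it marked so few was not tested, and whether doublets were removed before deposit is not stated. Mixed cells can therefore remain in every class. Levels below are CPM of the summed UMIs of a class in a library. They are tags of transcript 3′ ends and are not divided by gene length, so each gene is compared across classes and not with other genes.

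**Figure D1:**
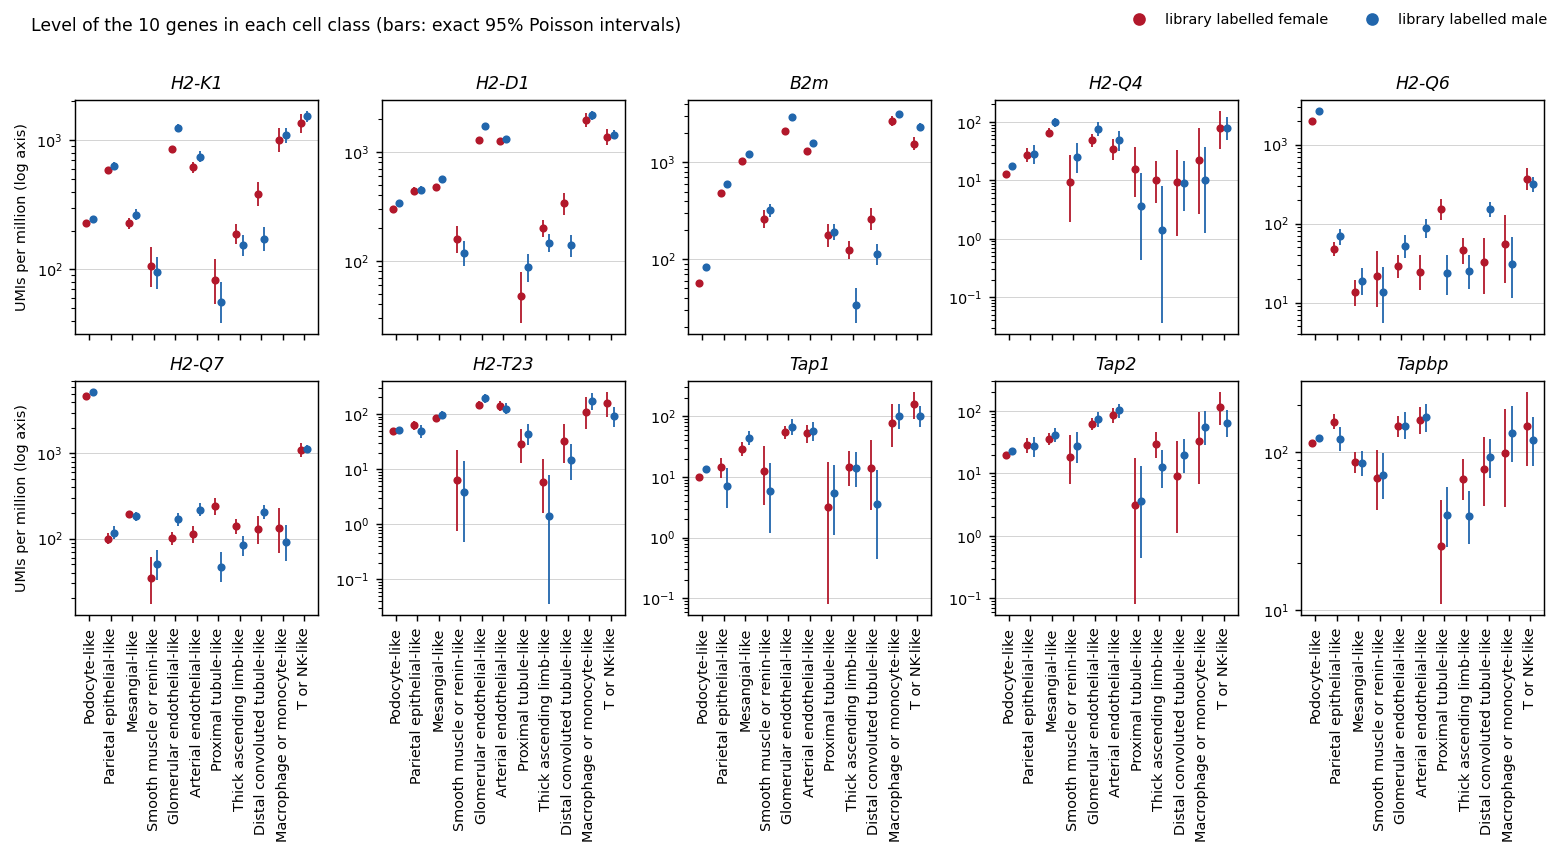
Level of each of the 10 genes (CPM, log axis) in 11 cell classes, with 1 point per library and exact 95% Poisson intervals that cover counting error only. H2-Q6 and H2-Q7 stand highest in podocyte-like cells (1990 and 2657 CPM, 4707 and 5244 CPM), where B2m is at 57.3 and 82.2 CPM against 2140 and 2948 CPM in glomerular endothelial-like cells.

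Each class was compared with podocyte-like cells by edgeR's quasi-likelihood test on class sums over the 2 mice, with the library as a block and adjusted p-values over 11359 genes. The block takes out any difference between the 2 mice that is common to all classes. These p-values therefore measure how much class ratios differed between the 2 mice. That spread was shared over all classes in a single fit, so it is not the spread of each class alone. Opposite patterns occurred among the 10 genes: H2-Q6 and H2-Q7 were lower than in podocyte-like cells in all 10 classes, while B2m was higher in 9 of 10. Because the classes differ widely from podocytes, the share of all tested genes called in each direction is given beside each count of these genes.

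In glomerular endothelial-like cells 7 of the 10 genes were higher and 2 lower, where 25.2% and 23.3% of all genes were called higher and lower. In arterial endothelial-like cells 7 were higher and 2 lower (all genes: 21.1% and 21.6%). In T or NK-like cells 7 were higher and 2 lower (all genes: 17.9% and 20.4%). Macrophage or monocyte-like cells had 6 higher and 2 lower (all genes: 16.8% and 19.6%). In these endothelial and immune classes the 2 lower genes were H2-Q6 and H2-Q7, and the share of the 10 genes called higher stood above the share of all genes. Mesangial-like cells had 5 higher and 3 lower (all genes: 26.1% and 25.0%), and parietal epithelial-like cells 3 higher and 2 lower (all genes: 27.2% and 21.3%). Parietal epithelial-like cells thus had a share close to that of all genes. In the tubule and smooth muscle classes most calls were lower. Proximal tubule-like cells had 1 higher and 6 lower (all genes: 22.7% and 21.8%), smooth muscle or renin-like cells 1 higher and 6 lower (18.0% and 16.0%), and distal convoluted tubule-like cells 1 higher and 3 lower (20.5% and 16.4%). In thick ascending limb-like cells edgeR called 0 higher and 6 lower (24.4% and 20.7%); 0 were higher at an unadjusted p under 0.05 too, and DESeq2 called 0 higher. At a mitochondrial limit of 10% that class had 1 higher and 3 lower. The median fitted log2 ratio of the 10 genes was 2.0 in T or NK-like, 1.75 in glomerular endothelial-like and 1.4 in arterial endothelial-like cells, beside medians of -0.40, -0.07 and -0.14 over all genes. It was -1.54 in proximal tubule-like cells, beside -0.23 over all genes.

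**Figure D2:**
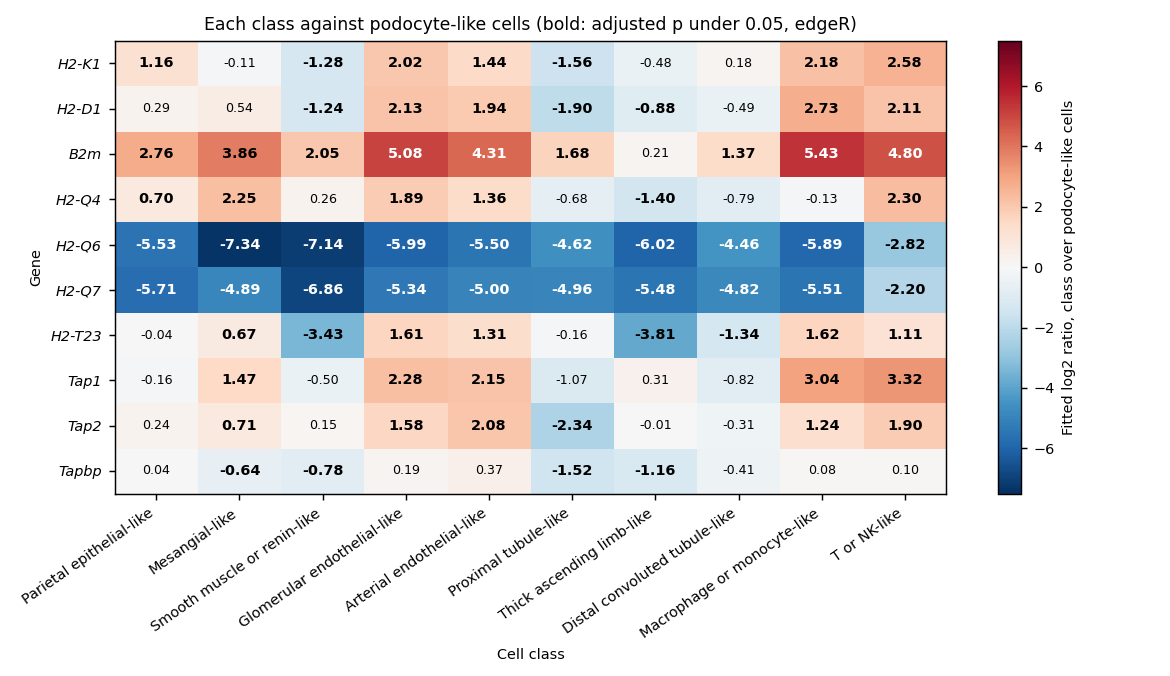
Fitted log2 ratio of each class to podocyte-like cells for the 10 genes (rows) and 10 classes (columns), with red for higher, blue for lower and bold for an adjusted p under 0.05. The H2-Q6 and H2-Q7 rows are blue throughout, from -7.34 to -2.20, and the B2m row is red, from 0.21 to 5.43.

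H2-Q6 and H2-Q7 encode heavy chains of the Qa-2 antigens, non-classical class I molecules that can be anchored in the membrane by a lipid. H2-Q7 stood at 4707 and 5244 CPM in podocyte-like cells and H2-Q6 at 1990 and 2657 CPM. The next class for both was T or NK-like, with 1095 and 1128 CPM of H2-Q7 and 371 and 317 CPM of H2-Q6. The highest level in any other class was 241 CPM of H2-Q7 and 152 CPM of H2-Q6, both in the 10 proximal tubule-like cells of the library labelled female. Podocyte-like and T or NK-like cells did not overlap with each other or with any other class for either gene.

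Between podocyte-like and glomerular endothelial-like cells, H2-Q7 differed 46.7-fold and 31.1-fold in the 2 libraries (fitted log2 ratio -5.34 ± 0.45 SE, adjusted p = 2.9e-10). Against mesangial-like cells, which held 193 and 182 CPM, the H2-Q7 ratio was -4.89 ± 0.43 (adjusted p = 6.8e-10). Against T or NK-like cells it was -2.20 ± 0.39 (adjusted p = 7.3e-05), with folds of 4.30 and 4.65. The smallest H2-Q6 difference was likewise the one from T or NK-like cells, at -2.82 ± 0.46 (adjusted p = 2.6e-05), and the widest was from mesangial-like cells, at -7.34 ± 0.54 (adjusted p = 3.0e-11).

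Droplets of other classes can hold free RNA from podocytes, the most numerous cells here, and the summed level of 10 podocyte markers served as its measure. That sum was between 162 and 3140 CPM in the other classes, against 27186 and 28199 CPM in podocyte-like cells. In T or NK-like cells the markers were at 8.56% and 0.575% of their podocyte-like level, while H2-Q7 was at 23.3% and 21.5% and H2-Q6 at 18.7% and 11.9%. The T or NK-like level of H2-Q7 was therefore alike in the 2 libraries although their podocyte marker RNA differed. In mesangial-like cells the markers were at 2.02% and 1.70%, H2-Q7 at 4.11% and 3.48% and H2-Q6 at 0.678% and 0.710%. H2-Q7 thus stood above the marker share there in both libraries, and H2-Q6 below it. In parietal epithelial-like cells the markers were at 5.23% and 4.55%, H2-Q7 at 2.14% and 2.25% and H2-Q6 at 2.41% and 2.58%. In glomerular endothelial-like cells the markers were at 8.14% and 8.28%, H2-Q7 at 2.14% and 3.22% and H2-Q6 at 1.47% and 1.98%. Both genes stood below the marker share in these 2 classes. In proximal tubule-like cells the libraries differed: H2-Q6 was at 7.66% and H2-Q7 at 5.13% in the one labelled female, above a marker share of 2.41%, and at 0.889% and 0.901% in the other, below a marker share of 2.16%. Podxl, the highest of the markers in both endothelial classes, is also made by endothelial cells. At least 8 of the 10 markers were detected in every class and library; Nphs1 and Wt1 were at 0 in the 11 macrophage or monocyte-like cells labelled female, and Nphs1 was at 0 in T or NK-like cells of the other library. The part of free podocyte RNA in the levels of the other classes was not tested.

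**Figure D3:**
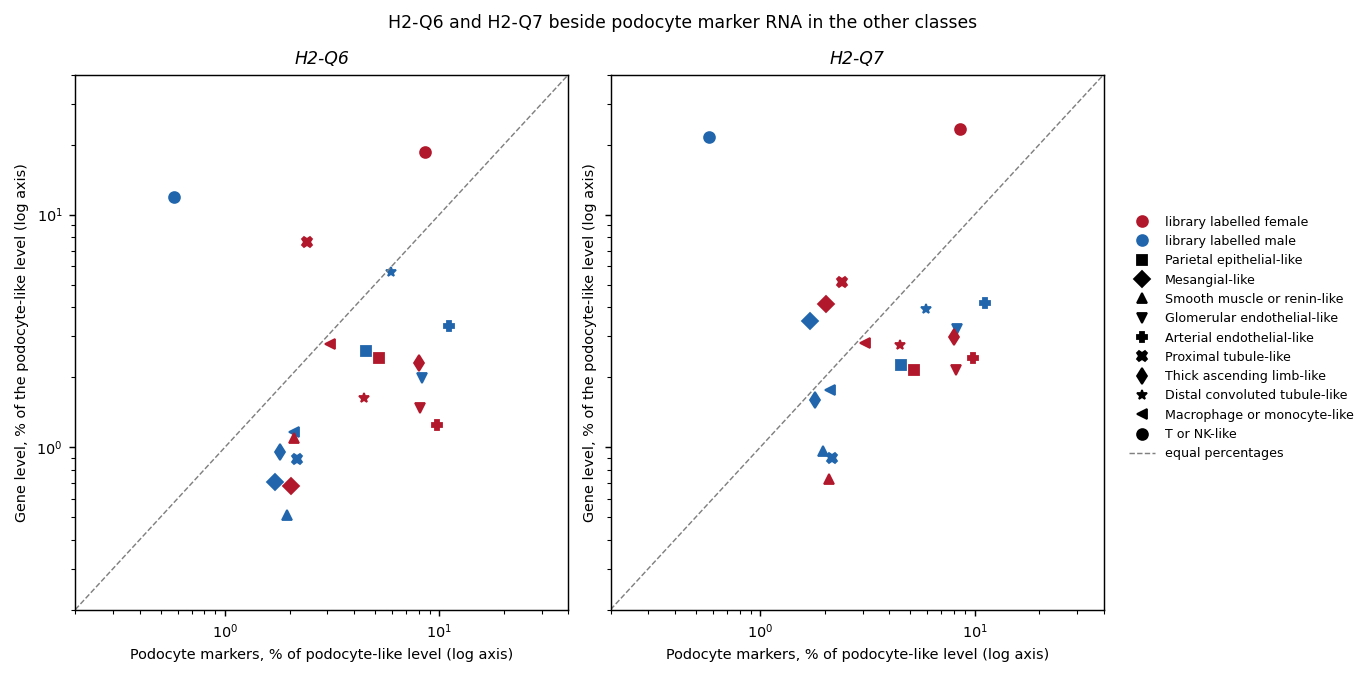
H2-Q6 (left) and H2-Q7 (right) in 10 classes as a percentage of the podocyte-like level of the same library (log axis), against the summed level of 10 podocyte markers as a percentage of its podocyte-like level (log axis). Points on the dashed line have equal percentages; T or NK-like cells lie above it for both genes (H2-Q7 at 23.3% and 21.5%), mesangial-like cells lie above it for H2-Q7 (4.11% and 3.48%), and proximal tubule-like cells lie above it in the library labelled female (7.66% and 5.13%) and below it in the other.

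The number of H2-Q7 UMIs per H2-Q6 UMI also differed between classes. It was 2.37 (95% interval 2.35 to 2.38) and 1.97 (1.96 to 1.99) in podocyte-like cells. In mesangial-like cells it was 14.3 (9.76 to 21.8) and 9.67 (6.49 to 15.0), the highest value of the 11 classes in both libraries. Its interval overlapped that of distal convoluted tubule-like cells in the former library, and those of macrophage or monocyte-like and smooth muscle or renin-like cells in the latter, all of which rest on few UMIs. In T or NK-like cells it was 2.95 (2.02 to 4.38) and 3.56 (2.80 to 4.56), and in parietal epithelial-like cells 2.09 (1.63 to 2.7) and 1.72 (1.29 to 2.30). These intervals cover counting error only. In T or NK-like cells H2-Q7 was not carried by a few cells: after every cell was reduced to 4000 UMIs, 71.4% and 96.9% of them held an H2-Q7 UMI (100% and 96.9% before), against 27.3% and 25.0% of macrophage or monocyte-like cells (45.5% and 50% before). Median depths were 13528 and 6725 UMIs in the former and 7260 and 8271 UMIs in the latter.

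H2-Q6 and H2-Q7 lie next to each other on chromosome 17 of GRCm38, on the plus strand, at chr17:35424850-35430055 and chr17:35439155-35443773. They are near copies, and 38.0% of the 60-base words in the last 500 bases of H2-Q6 transcripts also occur in transcripts of other counted genes, 23.4% of them in H2-Q7. H2-Q7 shared 0% of its own words, so H2-Q6 counts are the more uncertain of the pair. The 200 bases before the RefSeq start of 9 of the 10 genes were read from RefSeq promoter sequences of GRCm38.p6; Tap2 had no entry. The promoters of the pair are shown because the genes move together across classes, with those of H2-K1 and B2m because these follow another pattern. Sequences run 5′ to 3′ on the gene's strand. Capitals mark matches on either strand to GGGATTCCC, the NF-kappaB letters of class I enhancer A, or to GAAANNGAA. The latter is a form of the core of the interferon-stimulated response element.
H2-Q6 (chr17:35424650-35424849, plus strand): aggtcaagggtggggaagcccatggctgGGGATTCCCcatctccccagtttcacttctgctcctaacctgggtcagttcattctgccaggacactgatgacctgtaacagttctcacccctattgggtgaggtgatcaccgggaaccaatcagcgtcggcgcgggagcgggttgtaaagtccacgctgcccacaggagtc
H2-Q7 (chr17:35438955-35439154, plus strand): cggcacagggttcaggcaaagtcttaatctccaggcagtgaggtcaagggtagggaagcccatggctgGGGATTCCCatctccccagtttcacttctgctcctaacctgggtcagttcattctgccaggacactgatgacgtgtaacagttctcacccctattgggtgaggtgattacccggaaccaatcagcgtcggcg
H2-K1 (chr17:34000348-34000547, minus strand): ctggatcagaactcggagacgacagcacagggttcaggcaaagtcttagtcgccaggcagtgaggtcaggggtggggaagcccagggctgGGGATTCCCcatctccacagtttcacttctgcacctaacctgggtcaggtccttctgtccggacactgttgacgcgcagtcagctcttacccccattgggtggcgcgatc
B2m (chr2:122147487-122147686, plus strand): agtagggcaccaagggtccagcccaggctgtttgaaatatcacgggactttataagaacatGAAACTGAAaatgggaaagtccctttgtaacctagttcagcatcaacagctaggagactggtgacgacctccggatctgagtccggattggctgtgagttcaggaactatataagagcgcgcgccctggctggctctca

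The letters GGGATTCCC were found in 4 of the 9 genes with a promoter entry, H2-K1, H2-D1, H2-Q6 and H2-Q7, and in 0.213% of 32851 promoter windows of the same length. GAAANNGAA was found in 2, B2m and H2-T23, and in 5.57% of all windows. TGACG, letters found in cAMP response elements, was in 6 of the 9 genes (15.7% of all windows), H2-Q7 among them and H2-Q6 not. CCAAT, searched on both strands like the others, was in 8 of the 9 (29.3% of all windows). No match of one motif overlapped a match of another in these genes. Aligned without gaps at a shift of 39 bases, the H2-Q6 and H2-Q7 windows were identical at 137 of 161 bases (85.1%). At a shift of 22 bases H2-K1 and H2-Q7 were identical at 96 of 178 bases (53.9%). Directly after GGGATTCCC, H2-Q7 lacks a base that H2-K1 and H2-Q6 hold, which puts part of each pair out of step. Both percentages are therefore too low, and they do not rank the likeness of the promoters. The enhancer letters were thus present both in genes highest in podocyte-like cells and in H2-K1, which was not; a match is a description of the sequence and not of a bound site.

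B2m encodes the light chain that every classical heavy chain needs to reach the cell surface. It lies at chr2:122147686-122153083, the other 9 genes being on chromosome 17. Podocyte-like cells held 57.3 and 82.2 CPM of B2m, the lowest mean of the 11 classes. Macrophage or monocyte-like cells held 2689 and 3156 CPM, glomerular endothelial-like cells 2140 and 2948 CPM, and T or NK-like cells 1564 and 2347 CPM. Arterial endothelial-like cells held 1315 and 1588 CPM and mesangial-like cells 1032 and 1235 CPM. Each of these 5 classes was over 10-fold above podocyte-like cells in both libraries, but each of the 4 highest overlapped its neighbour in the order.

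Parietal epithelial-like cells, the other epithelium of the glomerulus, held 487 and 595 CPM of B2m, between mesangial-like and smooth muscle or renin-like cells (262 and 319 CPM) with no overlap on either side. Against podocyte-like cells the fitted log2 ratio was 5.43 ± 0.42 in macrophage or monocyte-like cells (adjusted p = 2.7e-10), 5.08 ± 0.41 in glomerular endothelial-like cells (adjusted p = 1.5e-10) and 2.76 ± 0.37 in parietal epithelial-like cells (adjusted p = 9.6e-07). Proximal tubule-like cells (178 and 193 CPM, adjusted p = 9.7e-04) and distal convoluted tubule-like cells (262 and 113 CPM, adjusted p = 0.0092) were higher than podocyte-like cells too. The last of these calls was lost when the MHC genes took part in the clustering (log2 ratio 0.55, adjusted p = 0.36) or at a clustering resolution of 0.5 (0.55, adjusted p = 0.35). Thick ascending limb-like cells held 125 and 33.9 CPM, above podocyte-like cells in one library and below in the other, and did not pass the test (0.21 ± 0.40, adjusted p = 0.73). B2m overlaps Patl2 on the opposite strand. Whether reads were counted by strand is not stated in the labels, so reads of such pairs cannot be told apart.

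H2-K1 and H2-D1 are the classical heavy chains that present peptides to CD8 T cells. H2-K1 stood at 1359 and 1536 CPM in T or NK-like cells, 1014 and 1096 CPM in macrophage or monocyte-like cells and 849 and 1244 CPM in glomerular endothelial-like cells. Arterial endothelial-like cells held 617 and 749 CPM and parietal epithelial-like cells 586 and 636 CPM, and these 2 classes overlapped. Podocyte-like cells held 230 and 246 CPM, inside the range of mesangial-like cells (227 and 266 CPM). H2-K1 was lowest in smooth muscle or renin-like cells (106 and 94.8 CPM) and proximal tubule-like cells (82.5 and 56.3 CPM).

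Parietal epithelial-like cells were 2.55-fold and 2.58-fold above podocyte-like cells in H2-K1 (log2 ratio 1.16 ± 0.25, adjusted p = 5.0e-04). They held 441 and 448 CPM of H2-D1 against 297 and 339 CPM in podocyte-like cells, and that difference did not pass the test (0.29 ± 0.28, adjusted p = 0.42). H2-D1 was highest in macrophage or monocyte-like cells (1950 and 2157 CPM), followed by glomerular endothelial-like (1285 and 1719 CPM), T or NK-like (1368 and 1435 CPM) and arterial endothelial-like cells (1260 and 1307 CPM). All 4 were above podocyte-like cells, with log2 ratios from 1.94 ± 0.28 to 2.73 ± 0.30. Both classical genes were higher in the endothelial and immune classes, H2-K1 in parietal epithelial-like cells as well, and both were below the podocyte-like level in smooth muscle or renin-like cells (-1.28 ± 0.30 for H2-K1, -1.24 ± 0.32 for H2-D1) and proximal tubule-like cells (-1.56 ± 0.32 and -1.90 ± 0.34). The H2-D1 call in thick ascending limb-like cells (-0.88 ± 0.29, adjusted p = 0.017) was lost with DESeq2 (-0.70, adjusted p = 0.082), with other size factors (-0.70, adjusted p = 0.053) and at a mitochondrial limit of 10% (-0.38, adjusted p = 0.18). Podocyte-like cells were thus neither the highest nor the lowest class for either classical heavy chain.

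H2-Q4 is a further heavy chain of the Q region, and H2-T23 encodes Qa-1, which presents leader peptides of other class I molecules to receptors on natural killer and T cells. H2-Q4 was highest in mesangial-like (65.5 and 98.5 CPM) and T or NK-like cells (78.2 and 79.3 CPM), which overlapped, and stood at 13.0 and 17.5 CPM in podocyte-like cells. Its log2 ratio to podocyte-like cells was 2.25 ± 0.16 in mesangial-like cells (adjusted p = 2.2e-11) and 1.89 ± 0.22 in glomerular endothelial-like cells (adjusted p = 7.5e-08). H2-Q4 was thus placed unlike its neighbours H2-Q6 and H2-Q7. In macrophage or monocyte-like cells it was at 22 and 10.2 CPM, from 2 UMIs in each library, and was not called. The parietal epithelial-like call (0.70 ± 0.22, adjusted p = 0.012) was lost without the library block (adjusted p = 0.081), with DESeq2 (adjusted p = 0.10) and with the unnamed podocyte-scored clusters joined to the podocyte class (adjusted p = 0.053). The lower H2-Q4 call in thick ascending limb-like cells rests on 7 and 1 UMIs, was lost with DESeq2, with other size factors, without the block and with the MHC genes in the clustering (adjusted p from 0.053 to 0.12) and turned to 0.23 at a mitochondrial limit of 10%.

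H2-T23 was at 149 and 192 CPM in glomerular endothelial-like cells, 110 and 174 CPM in macrophage or monocyte-like cells, 141 and 125 CPM in arterial endothelial-like cells and 156 and 90.1 CPM in T or NK-like cells, each overlapping the next. Podocyte-like cells held 49.5 and 52.3 CPM, within the range of parietal epithelial-like cells (62.5 and 49.3 CPM). H2-T23 was lowest in thick ascending limb-like cells (5.90 and 1.41 CPM, from 4 and 1 UMIs) and smooth muscle or renin-like cells (6.23 and 3.87 CPM, from 2 UMIs each). Both were lower than podocyte-like cells, by log2 ratios of -3.81 ± 0.48 (adjusted p = 4.6e-07) and -3.43 ± 0.55 (adjusted p = 1.8e-05). The lower call in distal convoluted tubule-like cells (-1.34, adjusted p = 0.011, from 7 and 8 UMIs) was lost with the MHC genes in the clustering and at a resolution of 0.5 (adjusted p = 0.058 and 0.053). The last 500 bases of H2-Q4 and H2-T23 transcripts share 24.7% and 24.5% of their 60-base words with other counted genes, and H2-T23 and H2-Q4 overlap A930015D03Rik and Gm11131 on the opposite strand.

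Tap1 and Tap2 form the transporter that carries peptides into the endoplasmic reticulum. Tap1 was at 156 and 101 CPM in T or NK-like cells, 77.1 and 102 CPM in macrophage or monocyte-like cells, 55.2 and 66.7 CPM in glomerular endothelial-like cells and 9.86 and 13.4 CPM in podocyte-like cells. Its log2 ratio to podocyte-like cells was 3.32 ± 0.36 in T or NK-like (adjusted p = 7.9e-08), 2.28 ± 0.25 in glomerular endothelial-like (adjusted p = 3.6e-08) and 1.47 ± 0.24 in mesangial-like cells (adjusted p = 1.3e-05). Parietal epithelial-like cells, at 14.5 and 7.04 CPM, overlapped podocyte-like cells.

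Tap2 followed a similar order, with 85.7 and 103 CPM in arterial endothelial-like, 117 and 64.9 CPM in T or NK-like, 62.5 and 73.8 CPM in glomerular endothelial-like and 19.5 and 22.6 CPM in podocyte-like cells. The Tap2 call in macrophage or monocyte-like cells (1.24 ± 0.46, adjusted p = 0.039, from 3 and 11 UMIs) was lost without a filter on low counts (adjusted p = 0.095) and without the highest doublet scores (adjusted p = 0.055). Tapbp encodes tapasin, which bridges the transporter and the empty heavy chain. It varied less between classes, from 160 and 166 CPM in arterial endothelial-like to 25.4 and 40 CPM in proximal tubule-like cells, and stood at 115 and 123 CPM in podocyte-like cells. Tapbp was called higher by edgeR in 0 of 10 classes, also at an unadjusted p under 0.05, and was lower in 4, the mesangial-like (-0.64 ± 0.18), smooth muscle or renin-like, proximal tubule-like and thick ascending limb-like cells. The last of these was lost at a mitochondrial limit of 10% (-0.21, adjusted p = 0.37). Tap1 overlaps Psmb9 on the opposite strand, Tap2 overlaps Gm20496 and Gm15821, and Tapbp overlaps Zbtb22 on the same strand.

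The rest of the pathway was read from 7 gene lists. Of the 5 genes of the immunoproteasome and its activator, all 5 were higher than in podocyte-like cells in mesangial-like, macrophage or monocyte-like and T or NK-like cells, 4 in both endothelial classes and 3 in parietal epithelial-like cells. Of all genes, 26.1%, 16.8% and 17.9% were called higher in the first 3 classes, 25.2% and 21.1% in glomerular and arterial endothelial-like cells and 27.2% in parietal epithelial-like cells. Psmb8, the interferon-inducible subunit that cuts after hydrophobic residues, was at 2.02 and 2.72 CPM in podocyte-like cells, 181 and 193 CPM in glomerular endothelial-like cells and 401 and 397 CPM in T or NK-like cells. Psmb9 was at 4.78 and 7.23 CPM in podocyte-like cells and 75.5 and 104 CPM in glomerular endothelial-like cells, and Psmb10 at 17.4 and 21.4 CPM and 166 and 142 CPM. The list's median log2 ratio was 2.90 in glomerular endothelial-like and 1.34 in parietal epithelial-like cells, beside -0.07 and -0.01 over all genes. The 3 constitutive subunits that these replace, Psmb5, Psmb6 and Psmb7, went the other way: all 3 were lower in both endothelial classes (all genes: 23.3% in glomerular and 21.6% in arterial), with medians of -0.66 in glomerular and -0.53 in arterial endothelial-like cells. Psmb5 was at 251 and 242 CPM in podocyte-like and 162 and 160 CPM in glomerular endothelial-like cells. Psmb6 was at 246 and 238 CPM against 195 and 135 CPM. The activator genes Psme1 and Psme2, the former at 113 and 121 CPM in podocyte-like and 272 and 294 CPM in glomerular endothelial-like cells, differed less than the subunits. Both endothelial classes thus had more immunoproteasome and less constitutive subunit RNA than podocyte-like cells. Psmb9 was at 0 in proximal tubule-like cells of both libraries.

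Of the 5 genes of peptide loading and trimming, all 5 were lower in smooth muscle or renin-like cells (all genes: 16.0%), and in T or NK-like cells 1 was higher and 3 lower (17.9% and 20.4%). In arterial endothelial-like cells 2 were higher and 2 lower (21.1% and 21.6%). In glomerular endothelial-like cells 1 was higher and 2 lower (25.2% and 23.3%), as in parietal epithelial-like cells (27.2% and 21.3%). In the other 5 classes from 0 to 3 were lower (all genes: from 16.4% in distal convoluted tubule-like to 25.0% in mesangial-like cells). Calr, the chaperone calreticulin, was at 1299 and 1298 CPM in podocyte-like cells and was lower in 9 of 10 classes. Pdia3 was at 560 and 597 CPM in podocyte-like cells and at 574 and 588 CPM in parietal epithelial-like cells. Tapbpl, a tapasin-related peptide editor, was at 7.38 and 7.74 CPM in podocyte-like cells and 25.2 and 46.8 CPM in glomerular endothelial-like cells. Erap1, which trims peptides, was at 41.6 and 53.6 CPM in podocyte-like and 12.5 and 11.6 CPM in smooth muscle or renin-like cells. Of the 6 transcriptional regulators tested, 4 were higher in glomerular endothelial-like cells, 3 each in arterial endothelial-like and macrophage or monocyte-like cells, and 3 were lower in proximal tubule-like and in thick ascending limb-like cells. The shares of all genes called in the same directions were 25.2%, 21.1%, 16.8%, 21.8% and 20.7%. Nlrc5, the class I transactivator, was at 0.340 and 0.764 CPM in podocyte-like cells and 29.3 and 21.6 CPM in T or NK-like cells, the latter from 3 and 6 UMIs. Irf1, an interferon-induced activator of class I genes, was at 117 and 57.5 CPM in podocyte-like cells and 28.6 and 5.45 CPM in proximal tubule-like cells.

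Among the 4 interferon receptor genes, Ifngr1 was at 214 and 226 CPM in podocyte-like cells and lower in 8 of 10 classes, with 56.8 and 63.8 CPM in glomerular endothelial-like cells. Its partner Ifngr2 was at 18.4 and 14.7 CPM in podocyte-like cells and 74.7 and 97.9 CPM in glomerular endothelial-like cells. The 2 chains of the interferon gamma receptor therefore ranked these 2 classes in opposite order. The type I receptor genes were higher in macrophage or monocyte-like than in podocyte-like cells, by 2.0 for Ifnar1 and 2.17 for Ifnar2 on the log2 scale. Of 7 other class I and class I-like genes tested, 6 were higher in glomerular endothelial-like and in mesangial-like cells (all genes: 25.2% and 26.1%). H2-T24 was at 82 and 123 CPM in glomerular endothelial-like cells and 0.300 and 0.306 CPM in podocyte-like cells, and Fcgrt, the neonatal Fc receptor, was at 124 and 101 CPM in mesangial-like and 11.0 and 9.52 CPM in podocyte-like cells. H2-T22 was at 186 and 162 CPM in T or NK-like and 18.7 and 15.8 CPM in podocyte-like cells, and H2-Q2 at 25.1 and 26.6 CPM in mesangial-like and 0.180 and 0.433 CPM in podocyte-like cells. H2-M3 and Hfe were higher in glomerular endothelial-like cells, by 2.39 and 2.23 on the log2 scale. Of the 6 MHC class II genes tested, all 6 were higher in macrophage or monocyte-like cells (all genes: 16.8%), where Cd74 was at 7174 and 1783 CPM and where H2-Aa, H2-Eb1 and H2-DMa were also called; H2-Ab1 was at 4220 and 912 CPM in macrophage or monocyte-like cells and 96.5 and 98.6 CPM in parietal epithelial-like cells, against 0.720 and 0.0509 CPM in podocyte-like cells. H2-DMb1, part of the class II peptide exchanger, was at 65.4 and 57.0 CPM in podocyte-like cells and lower in 9 of 10 classes, while its partner H2-DMa was at 0.840 and 0.611 CPM there.

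The genes whose levels most resembled H2-K1 and H2-Q6 were taken from 7735 genes over 18 sums of 1 class in 1 library, by Pearson's r of log2(CPM + 10). The sums share 2 libraries, so r is a description. H2-K1 was most like Psmb9 (0.92), Arl6ip5 (0.92), Cbfb (0.91), Tpm3 (0.90) and Utp18 (0.89), and among the 10 genes r with H2-K1 ran from 0.94 for H2-D1 to 0.12 for H2-Q6. H2-Q6 was most like Itga2 (0.95), Ndfip1 (0.94), Cd55 (0.93), Rarres1 (0.92) and Nrd1 (0.92), with 0.94 for H2-Q7 and -0.36 for B2m. Itga2 was at 51.1 and 51.6 CPM in podocyte-like cells, and, like H2-Q6, had its next level in T or NK-like cells (19.5 and 14.4 CPM). Across single podocyte-like cells, over 9090 genes, the 5 genes most like H2-Q6 were Igfbp7 (r of 0.24 and 0.24), Itm2b (0.30 and 0.23), Cox7b (0.24 and 0.20), Rarres1 (0.20 and 0.18) and Bcam (0.19 and 0.18), weak values over cells that share a library and depth. H2-Q6 was thus close to H2-Q7 and far from H2-K1, and the other 7 genes had r with H2-K1 from 0.60 for H2-Q4 to 0.94 for H2-D1.

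Podocyte-like cells were also compared among themselves, by cluster. Across the 7 podocyte-like clusters H2-Q6 ranged from 1759 to 2696 CPM in the library labelled female and from 2292 to 3126 CPM in the library labelled male, 1.53-fold and 1.36-fold. H2-Q7 ranged 1.37-fold and 1.24-fold, H2-K1 1.11-fold and 1.25-fold, and B2m 1.64-fold and 1.48-fold. The same cluster was highest for H2-Q6 in both libraries and carried 163 and 135 CPM of Myl7, where the podocyte-like class as a whole held 69.9 and 76.2 CPM. The levels did not run in parallel, however: in the library labelled male the cluster with the most Myl7 (164 CPM) held 2664 CPM of H2-Q6, close to the level of the class and below 2 clusters with 58.2 and 45.8 CPM of Myl7 (2715 and 2914 CPM of H2-Q6). 

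Between the libraries there was 1 mouse per label and so no test. In podocyte-like cells 8 of the 10 genes reached 20 CPM in either library, and all 8 stood lower in the one labelled female. Their median log2 ratio of CPM + 10, labelled female over labelled male, was -0.15, beside -0.01 over all genes. None of the 8 was past 1.5-fold, as were 1.62% of all genes. The 5th to 95th percentile of all genes in this class ran only from -0.19 to 0.19. B2m (-0.45) and H2-Q6 (-0.42) lay below that range, and the rest of the 8 inside it. The largest differences were B2m, 1.44-fold higher in the library labelled male (95% interval 1.36 to 1.51), and H2-Q6, 1.34-fold higher (1.32 to 1.35). H2-T23 was 1.06-fold higher (0.996 to 1.12). In glomerular endothelial-like cells all 10 were lower in the library labelled female, with a median of -0.44 beside 0.03 over all genes, and 3 of 10 were past 1.5-fold (all genes: 18.3%). H2-K1 was 1.46-fold higher in the library labelled male there (1.34 to 1.60) and B2m 1.38-fold (1.30 to 1.46). Arterial endothelial-like cells had 9 of 10 lower, a median of -0.25 and 2 past 1.5-fold (all genes: 21.0%), H2-Q6 and H2-Q7 being the 2. The summed podocyte markers were at 2657 and 3140 CPM in that class, also lower in the one labelled female, and their part in the ratio was not tested.

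Mesangial-like cells had 7 of 9 lower in the library labelled female, a median of -0.22 and 1 past 1.5-fold, H2-Q4 (all genes: 8.06%). Parietal epithelial-like cells had 6 of 9 lower, a median of -0.05 and 0 past 1.5-fold (all genes: 9.36%). Smooth muscle or renin-like cells had 5 of 8 lower, a median of -0.17 and 2 past 1.5-fold in opposite directions (all genes: 30.5%). Thick ascending limb-like cells went the other way, with 7 of 7 higher in the library labelled female, a median of 0.65 and 5 past 1.5-fold (all genes: 23.9%). In that class the summed podocyte markers were at 2179 and 509 CPM, higher in the same library, and their part was not tested. The 10 genes thus had no single direction between the libraries over all classes.

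**Figure D4:**
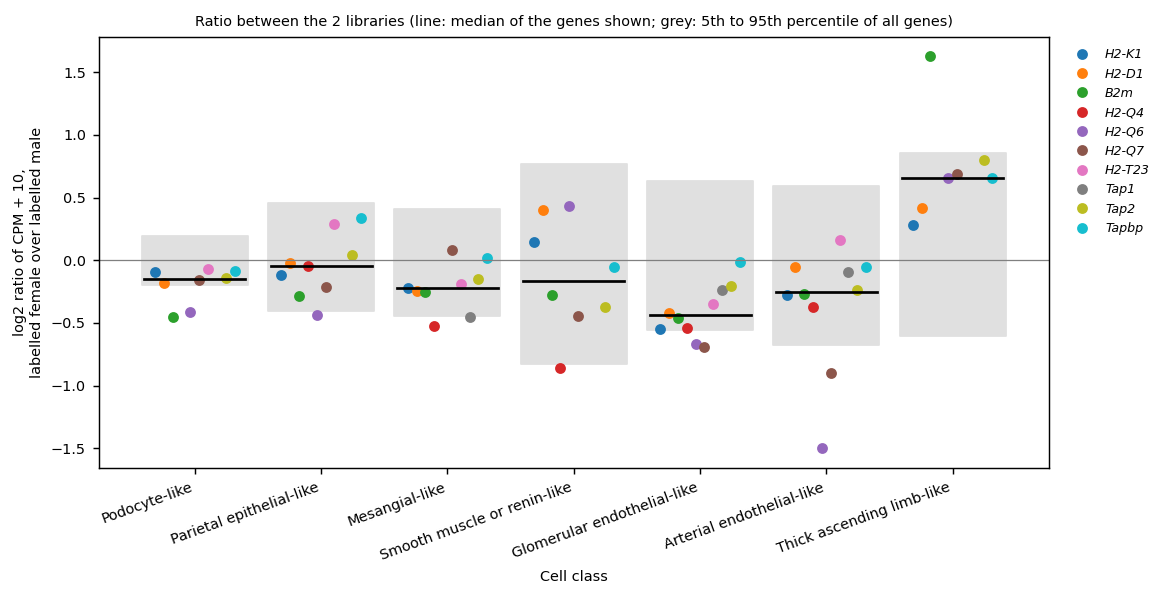
log2 ratio of CPM + 10 between the library labelled female and the library labelled male for the 10 genes that reached 20 CPM in each of 7 classes (points), with their median (line) and the 5th to 95th percentile of all genes (grey). All 8 points in podocyte-like cells and all 10 in glomerular endothelial-like cells lie below 0, and all 7 in thick ascending limb-like cells lie above it.

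Myl7, an atrial myosin light chain, was found in part of the podocyte-like cells. Each podocyte-like cell with at least 6000 UMIs was reduced to that number and placed by its Myl7 UMIs: 3401 and 2973 cells had none, 348 and 243 had 1 or 2 (low) and 219 and 203 had more than 2 (high). Of the cells in these bins 95 and 71 stood at 2 Myl7 UMIs, just inside the low bin, and 60 and 50 just above. Median depths were 10694 and 9852 UMIs in the cells with none, 12668 and 10535 in the low bin and 11317 and 10973 in the high bin. H2-Q6 was paired with Myl7 when the genes were chosen, so its level by Myl7 is a description. Levels by bin are from all UMIs of a cell, so the cells placed at none still held 7.72 and 5.11 CPM of Myl7. In the library labelled female H2-Q6 was at 1979 CPM in the cells placed at none, 1945 CPM in the low and 2233 CPM in the high bin. In the library labelled male it was at 2627, 2809 and 2792 CPM. High over none was 1.13-fold (1.10 to 1.16) and 1.06-fold (1.04 to 1.09), while Myl7 itself differed 95.8-fold and 168-fold. In the library labelled female, single cells placed at none had H2-Q6 quartiles of 1058 and 2573 CPM (lower and upper). Those of the high bin were 1270 and 2724 CPM, so the bins overlapped widely. Pearson's r between H2-Q6 and Myl7 over cells was 0.06 and 0.04, where H2-Q6 and H2-Q7 had 0.55 and 0.45, values that share the cells' libraries and depth and, for the latter, sequence.

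Of the other 9 genes edgeR called 0 between Myl7-high and Myl7-none cells, where 1.04% of 10315 genes were called, and DESeq2 called 0 with 3 adjusted p-values not given. Unadjusted p-values under 0.05 came from 3 genes in edgeR and 0 in DESeq2. These 3 were H2-Q7 (0.08 ± 0.03 on the log2 scale, adjusted p = 0.34), H2-D1 (-0.13 ± 0.05, adjusted p = 0.21) and H2-T23 (-0.31 ± 0.10, adjusted p = 0.16). H2-T23 was at 49.8 and 51.9 CPM in Myl7-none cells and 41.1 and 40.7 CPM in the high bin. Bins on unthinned CPM, the use of all podocyte-marker clusters and a mitochondrial limit of 10% brought 2, 2 and 1 calls: H2-Q7 passed in all 3 (0.09 to 0.13, adjusted p from 0.0011 to 0.0056), H2-D1 with bins on unthinned CPM (-0.13, adjusted p = 0.038) and H2-T23 with all podocyte-marker clusters (-0.39, adjusted p = 0.028). The median of the 9 genes was -0.08, beside -0.0031 over all genes.

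**Figure D5:**
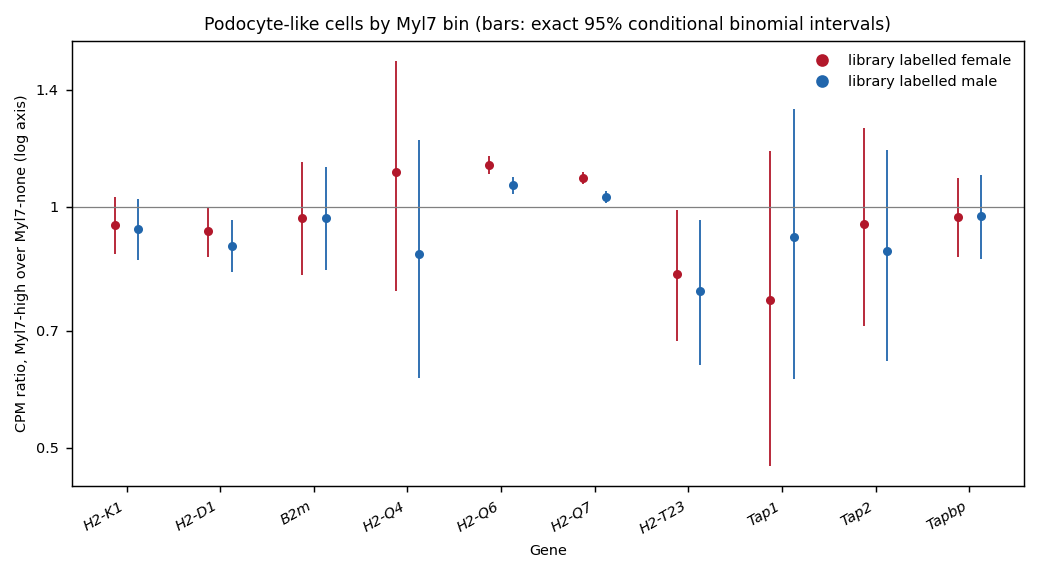
CPM of each gene in Myl7-high over Myl7-none podocyte-like cells (log axis), with 1 point per library and exact 95% conditional binomial intervals that cover counting error only. H2-Q6 is at 1.13 and 1.06, H2-T23 at 0.82 and 0.78, and the points of all 10 genes run from 0.77 to 1.13.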

How the data were processed

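The deposited values are UMI counts per gene and cell barcode, made by the authors with Cell Ranger 6.1.2 and STAR 2.7.5a on mm10, per the submitters' processing notes, 1 library per mouse. Cells under 500 genes or over 20% mitochondrial UMIs were left out. Clustering used 2000 variable genes, 30 components, 20 neighbours (scikit-learn 1.9.0) and Leiden resolution 1 (leidenalg 0.10.2), with 1604 cells other than podocytes clustered again. The doublet caller was that of scanpy 1.11.5. Clusters were named from at least 3 markers, each in over 20% of cells and at 50 CPM. Each marker also had to be over 2-fold above the lower quartile of its CPM over the clusters. These naming criteria were chosen with the clusters in view. Classes needed 5 cells in each library and 20 in all.

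UMI counts were summed per class and library and tested with edgeR 4.0.16 (quasi-likelihood, TMM factors, library as a block, Benjamini-Hochberg adjustment, threshold 0.05) in R 4.3.3, with DESeq2 1.42.0 as an alternative. The 2 libraries give every class its own pair of sums, so the block pairs sums from the same mouse. Ratios between libraries used CPM + 10 for medians and plain CPM for the 1.5-fold limit, over classes with 20 cells in each library and genes at 20 CPM in either. To compare shares of cells, cells were thinned to 4000 UMIs; for Myl7 bins, podocyte-like cells were thinned to 6000, which left out 360. Tested on simulated data for glomerular endothelial-like against podocyte-like cells, the test recovered 93% of 200 genes changed 2-fold and 100% of 200 changed 4-fold, with 6 and 16 calls among unchanged genes. The changed genes were drawn only from those well counted in the smallest class sum, and no other class differed in the simulation. The recovery therefore does not carry over to low genes such as Tap1, Tap2 and H2-Q4, or to the smallest classes. Intervals (95%, exact Poisson or binomial) cover counting error only.

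The 10 genes and the gene lists were chosen with earlier results of these data known. From each list the text names the 2 genes with the highest mean CPM and those called with a log2 ratio beyond 2 in either direction, except items that are not reported here. Likeness was ranked by Pearson's r, the first 5 genes being named. Alternatives changed the count model, size factors, filter, block, clustering, class size, mitochondrial limit, doublet scores, pseudocount, Myl7 bins and libraries. Positions are from GENCODE M21 on GRCm38 and promoters from RefSeq on GRCm38.p6.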

Additional observations from a re-analysis of the deposited data

Results flagged for a closer look

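H2-K1 in distal convoluted tubule-like cells stood above podocyte-like cells in the library labelled female (0.75 on the log2 scale) and below them in the library labelled male (-0.51), from 10 and 27 cells. B2m in thick ascending limb-like cells likewise went in opposite directions, at 1.13 and -1.28. With 1 library per label the difference between the libraries was not tested in either case.

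The 409 cells of unnamed clusters were left out of the comparisons in the report, except under alternatives that joined some of them to the podocyte class, and they held both B2m and H2-Q7. Their B2m level was 389 CPM (labelled female) and 420 CPM (labelled male), above the podocyte-like level in both libraries. H2-Q7 was at 2590 and 3060 CPM, between the podocyte-like and the T or NK-like level. These values pool unlike clusters. Clusters of 153, 143, 45 and 34 cells scored best as podocytes, and another 34 cells were led by cell division genes. B2m was lowest in the cluster of 143 cells (152 and 159 CPM). It was highest in the cluster led by cell division genes (1802 and 2224 CPM), where H2-Q7 was at 209 and 694 CPM.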

How the results depend on the processing

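Of the summary values recomputed under the alternatives, 246 stayed within the limits set for them and 7 moved. Members higher in distal convoluted tubule-like cells went from 1 to 0 with the MHC genes kept in the clustering and to 0 at Leiden resolution 0.5. At a mitochondrial limit of 10%, members of thick ascending limb-like cells went from 0 to 1 higher and from 6 to 3 lower, and the H2-Q4 log2 ratio there turned to 0.23. Genes other than H2-Q6 called between Myl7 bins went from 0 to 2 with bins on unthinned CPM, 2 with all clusters that carry podocyte markers and 1 at a mitochondrial limit of 10%. The cause was not tested. Distal convoluted and proximal tubule-like classes gave no value at that limit, and a minimum of 50 cells left fewer classes. Without the library block (no pairing of sums from the same mouse), 2 counts moved, each by 1 call: members higher in parietal epithelial-like cells were 2 in place of 3, members lower in thick ascending limb-like cells 5 in place of 6. Calls between Myl7 bins stayed at 0. Leaving out either library kept the direction of every called class ratio, and H2-Q6 by Myl7 ranged from 0.09 to 0.17. Of the calls for single genes, 794 values were unchanged in call and direction, 17 lost the call and 1 reversed. Other size factors moved the median of all genes by 0.09 to 0.19 log2. Joining unnamed podocyte-scored clusters to the podocyte class was chosen after seeing the data. The immune, distal convoluted and proximal tubule-like classes give few UMIs for H2-Q4, H2-T23, Tap1 and Tap2, and mixed cells and free RNA can remain in them.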

Other observations

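A cluster of 34 cells that stayed unnamed was led by the cell division genes Cenpf, Top2a and Mki67. It held 1802 and 2224 CPM of B2m, 755 and 826 CPM of H2-K1, and 209 and 694 CPM of H2-Q7 (labelled female, then labelled male). Its B2m level was above that of arterial endothelial-like cells in both libraries. Over all unnamed clusters H2-K1 was at 357 and 392 CPM and H2-Q6 at 1207 and 1523 CPM.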
